A study of Mus musculus with 26 samples.

Results

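Interferon-stimulated genes (ISGs) are the genes that a cell switches on after an interferon has bound its receptor. The set described here holds 34 mouse ISGs, given as a list of symbols and matched through Ensembl identifiers to the deposited count tables, where they are 34 of 55401 genes. All 34 were found and passed the filter on low counts in every fit. The lowest count of any member in any library was 16, for *Oas2* and *Mx1*.

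The study asked whether the aryl hydrocarbon receptor (*Ahr*), a ligand-activated transcription factor, holds back axon regrowth of sensory neurons. RNA was sequenced from mouse dorsal root ganglia (DRG), which hold the cell bodies of these neurons with their glia, vessels and resident immune cells, in 26 libraries that form 10 groups. Conditional knockout (cKO) mice were Ahr f/f and carried Thy1-CRE(ERT2/EYFP), a Cre that tamoxifen activates and that the *Thy1* promoter drives, mainly in neurons. Control mice carried no Cre but did carry floxed *Ahr*. Among the naive controls replicates 1 and 2 were Ahr fl/+ and replicate 3 was Ahr fl/fl, and the crush controls followed the same scheme. The 6 naive and 6 crush mice had received tamoxifen, 5 daily doses of 100 mg/kg, from 28 weeks of age. Their L4-L6 ganglia were taken 5 weeks later, either from naive mice (3 control, 3 cKO) or from mice whose sciatic nerve had been crushed 1 day earlier (3 control, 3 cKO), 1 mouse per library. The sham groups came from 4 male mice (2 control, 2 cKO) 1 day after sham surgery. Sham control replicate 1 was Ahr f/+ and sham control replicate 2 was Ahr fl/fl. Each mouse gave separate libraries for the ganglia ipsilateral and contralateral to the surgery. The last 2 groups were semi-purified neurons of female mice, 24 h after seeding in culture (3 control, all Ahr fl/fl, and 3 cKO). For the sham and neuron libraries the labels state neither an age nor a tamoxifen treatment.

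Type I interferons bind the receptor IFNAR, whose kinases JAK1 and TYK2 phosphorylate transcription factors such as STAT2. STAT2 and IRF9 belong to a complex that binds the interferon-stimulated response element (ISRE) of target promoters, whereas interferon gamma acts mainly through gamma-activated sites (GAS). The induced genes encode RNA and DNA sensors, the factors of the pathway itself, the ubiquitin-like ISG15 with its enzymes, proteins that bind or degrade viral RNA, and GTPases that attack the vacuoles of intracellular microbes. Without infection many of them are still transcribed at a low level, in neurons as well as in glia and immune cells.

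Promoter sequence of the members shows which of these sites they carry. RefSeq promoter windows on GRCm38.p6, from 250 bases before to 50 after a gene's start, held 25 of the 34 members in 29 windows (*Dhx58*, *Zbp1*, *Usp18*, *Oas2*, *Mx1*, *Iigp1*, *Ifi27*, *Rtp4* and *Parp14* had no entry). An ISRE, searched on both strands as a pair of GAAA separated by any 2 bases, lay in a window of 14 of these 25 members (56.0%) and in 3.443% of all 32851 windows. A GAS, searched as TTCNNNGAA, which reads the same on both strands, lay in a window of 7 of the 25 (28.0%) and in 8.298% of all windows, and in *Bst2* it overlapped an ISRE. Below are the 250 bases before the start of 6 members, 5′ to 3′ on the gene's strand. *Ifit1* rose most after nerve crush, *Rsad2*, *Oas1a* and *Isg15* stood furthest above naive ganglia in the cultured neurons of control mice, and *Cmpk2* and *Ifit2* were the members called lower there. Capitals mark ISRE matches, and overlapping matches run together.
Ifit1, chr19:34640639-34640888 (plus strand): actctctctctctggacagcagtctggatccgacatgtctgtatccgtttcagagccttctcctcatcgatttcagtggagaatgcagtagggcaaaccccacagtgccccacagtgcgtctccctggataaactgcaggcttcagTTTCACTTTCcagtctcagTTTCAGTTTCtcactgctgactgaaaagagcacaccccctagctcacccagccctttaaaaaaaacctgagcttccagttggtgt
Isg15, chr4:156200819-156201068 (minus strand): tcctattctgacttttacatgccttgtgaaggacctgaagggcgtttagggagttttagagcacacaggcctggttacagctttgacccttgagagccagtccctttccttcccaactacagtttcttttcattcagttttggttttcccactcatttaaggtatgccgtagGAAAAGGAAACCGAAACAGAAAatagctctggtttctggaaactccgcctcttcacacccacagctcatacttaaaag
Oas1a, chr5:120907526-120907775 (minus strand): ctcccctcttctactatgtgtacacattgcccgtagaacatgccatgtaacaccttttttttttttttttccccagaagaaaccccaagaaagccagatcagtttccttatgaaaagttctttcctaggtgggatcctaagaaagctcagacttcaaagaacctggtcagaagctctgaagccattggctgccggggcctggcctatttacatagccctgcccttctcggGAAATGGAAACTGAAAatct
Rsad2, chr12:26456453-26456702 (minus strand): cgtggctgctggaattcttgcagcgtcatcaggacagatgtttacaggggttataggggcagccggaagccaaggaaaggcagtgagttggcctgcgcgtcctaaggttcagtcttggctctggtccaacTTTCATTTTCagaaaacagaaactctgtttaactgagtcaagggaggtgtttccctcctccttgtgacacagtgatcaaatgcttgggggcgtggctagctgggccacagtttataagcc
Cmpk2, chr12:26468965-26469214 (plus strand): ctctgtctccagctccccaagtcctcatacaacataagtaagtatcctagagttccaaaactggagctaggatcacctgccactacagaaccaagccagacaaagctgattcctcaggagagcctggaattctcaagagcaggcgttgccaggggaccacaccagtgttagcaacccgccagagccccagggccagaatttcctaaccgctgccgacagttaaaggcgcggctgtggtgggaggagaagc
Ifit2, chr19:34550444-34550693 (plus strand): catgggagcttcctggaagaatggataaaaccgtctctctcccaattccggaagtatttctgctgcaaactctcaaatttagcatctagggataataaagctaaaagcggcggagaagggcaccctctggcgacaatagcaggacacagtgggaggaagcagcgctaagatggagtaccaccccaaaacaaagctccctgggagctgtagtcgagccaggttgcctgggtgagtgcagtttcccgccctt
In *Ifit1* the matches began 104 and 85 bases before the start, in *Isg15* 3 overlapping matches began 78, 72 and 66 bases before it, in *Oas1a* 20 and 14, and in *Rsad2* 120. The *Cmpk2* and *Ifit2* windows held no ISRE match, which says only that these letters are not in these windows. The 6 windows were chosen with the changes of these genes known. Of the members with a promoter in the table, *Herc6*, *Ifi35*, *Ifi44*, *Irf1*, *Irf7*, *Irf9*, *Oasl2*, *Trim25* and *Xaf1* held no ISRE match either, and all of them were called higher in neurons, described below. The other members with an ISRE match were *Bst2*, *Ddx58*, *Gbp2*, *Gbp3*, *Gbp7*, *Ifih1*, *Ifit3*, *Igtp*, *Irgm1* and *Stat2*.

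Total counts per library ranged from 20169388 to 23540375 in the naive and crush groups, from 39306414 to 58751270 in the sham groups and from 25299938 to 88180611 in the neurons. *Ahr*, the targeted gene, was not called lower in any cKO group. Its level was 18.9, 23.8 and 23.8 CPM (counts scaled to a common library size) in naive control and 24.2, 28.1 and 22.7 CPM in naive cKO libraries, and after crush the cKO libraries lay slightly above the control ones (39.7, 40.5 and 38.8 against 38.2, 38.7 and 36.2 CPM). No genotype comparison called it (log2 fold changes of cKO against control between -0.048 and 0.17). Counts over the whole gene also cover exons outside the floxed part and cells without Cre, so they do not check the deletion. *Thy1*, whose promoter drives the Cre, was higher in every library labelled cKO than in any control library of its set (1252 to 1416 against 707 to 807 CPM in naive ganglia). By sex-linked transcripts the crush library of control replicate 3, labelled male, was female, and that of cKO replicate 2, labelled female, was male. Counts of members called after crush, and the genotype comparisons there, are given below with and without both. In these bulk libraries a lower share of a cell type and less RNA per cell cannot be told apart.

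Per kilobase of exon, the members spanned a wide range of levels within every group. These levels are scaled within each set of libraries, so they give the order of genes within a group and no comparison between ganglia and neurons. *Ifi27*, which encodes a small membrane-associated protein, was the most abundant in 9 of the 10 groups, at 55.1 CPM per kilobase in naive control ganglia and 90.5 in control neurons. In the cKO crush group it shared the top with *Ifit1* (51.4 and 51.5 CPM per kilobase). *Ifit3*, *Ifit2* and *Ifit1* followed in naive control ganglia at 17.97, 16.9 and 14.7 CPM per kilobase, neighbours whose libraries overlapped. In control neurons the order below *Ifi27* was *Bst2*, *Isg15* and *Ifit3*, at 69.6, 69.4 and 57.5, again with overlapping libraries. *Mx1* and *Oas2* closed the order in naive ganglia and in neurons of both genotypes, at 0.339 and 0.184 CPM per kilobase in naive control ganglia.

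**Figure D1:**
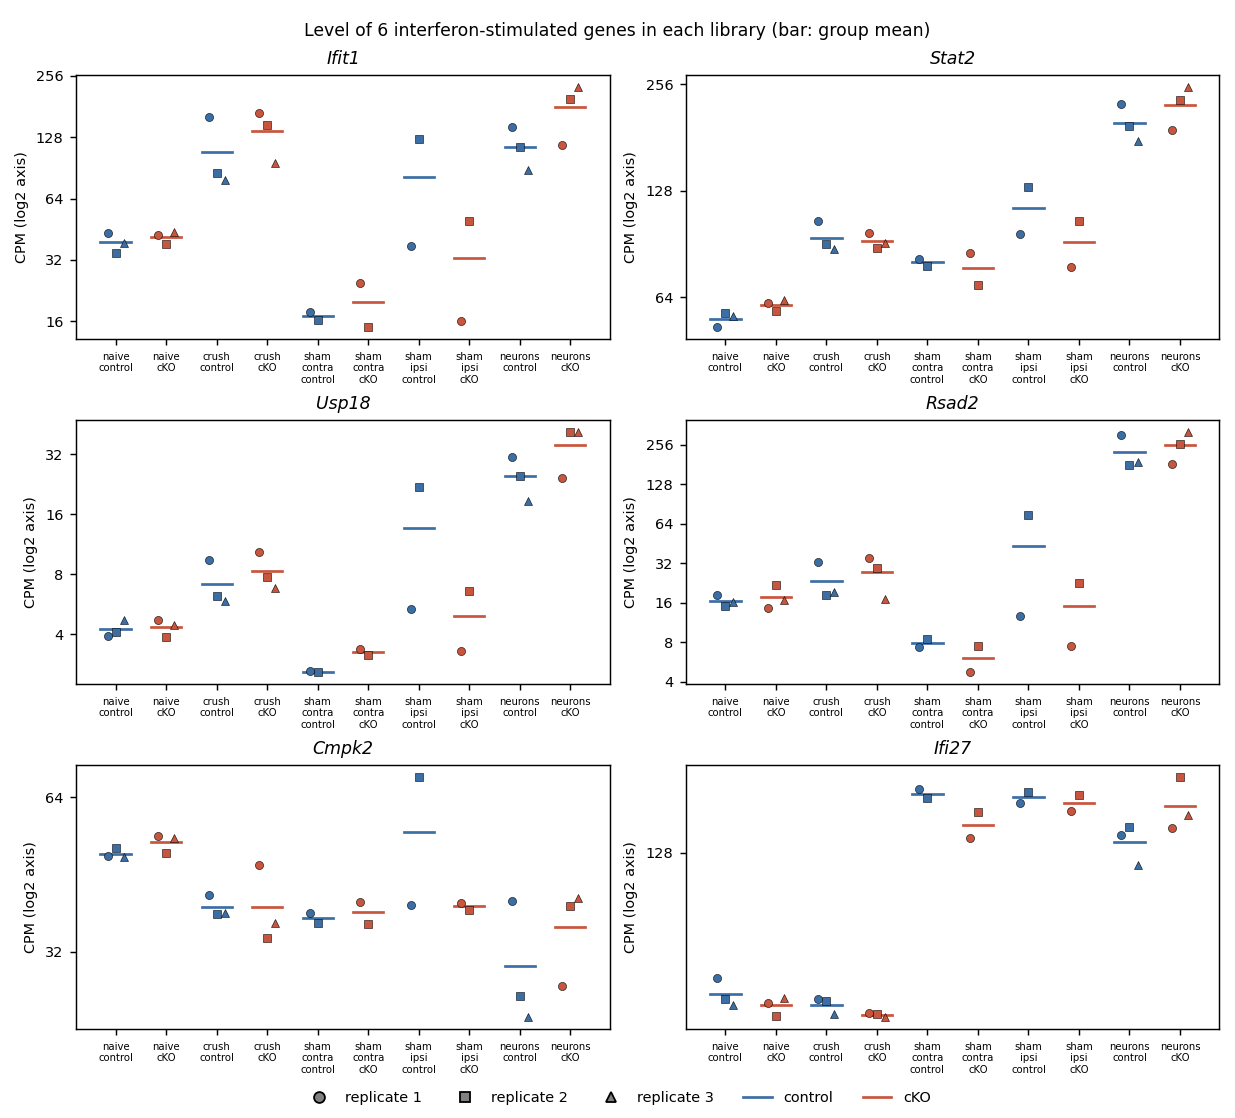
Level of 6 ISGs in every library, in CPM on a log2 axis, with 1 panel per gene, 1 symbol per replicate and a bar at the group mean (control blue, cKO red); levels are scaled within the naive and crush libraries, the sham libraries and the neuron libraries separately. Ifit1 lies higher after crush than in naive ganglia of both genotypes, Rsad2 lies highest in neurons, and in the ipsilateral sham controls replicate 2 stands above replicate 1 for all 6 genes.

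A group of the ISGs was higher in ganglia taken 1 day after sciatic crush than in naive ganglia, in both genotypes. The naive mice had no surgery, so in this comparison the surgery and the crush cannot be told apart. All 6 naive libraries and the 3 control crush libraries were female by sex-linked transcripts, while cKO crush replicates 2 and 3 were male, so sex also differs between crush and naive in cKO and between genotypes after crush. In control ganglia 12 of the 34 members were called higher and 1 lower, at an adjusted p under 0.05 in edgeR's quasi-likelihood test with Benjamini-Hochberg adjustment over all 21261 genes tested. Of all those genes 21.6% were called, 12.9% higher and 8.73% lower. The median log2 fold change of the members was 0.40, against -0.018 over all genes, and 31 of the 34 lay above 0, as did 47.2% of all genes. For 17 members the crush and naive libraries did not overlap in either order (38.1% of all genes). In cKO ganglia 18 were called higher and 1 lower, where 18.6% of all genes were called, 10.7% higher and 7.89% lower. There the median of the members was 0.60 (all genes -0.0046), 32 of 34 lay above 0 (49.2% of all genes) and 26 did not overlap (36.1%). The comparisons in control and in cKO share no library, and 10 members were called higher in both, which is 83.3% of the control list and 55.6% of the cKO list.

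Of the proteins that bind foreign RNA or act through 2-5A, the messenger that activates RNase L, 4 of 6 were called higher in each genotype. *Ifit1* (ENSMUSG00000034459.8, chr19:34640871-34650009, plus strand), which binds foreign RNA, had the largest change of the 34 in both genotypes. It stood at 43.5, 34.7 and 38.8 CPM in naive control libraries and at 161, 85.6 and 78.8 after crush, and in cKO at 42.6, 38.1 and 43.6 CPM before, 167, 147 and 95.7 after. Every crush library lay above every naive one, and in both genotypes crush replicate 1 was the highest. The fold change was 2.78 in control (log2 1.47, SE 0.259, adjusted p = 0.00172) and 3.30 in cKO (log2 1.72, SE 0.259, adjusted p = 0.000706). *Oasl2*, an oligoadenylate synthetase-like protein, went from 57.4, 68.8 and 69.4 to 138, 106 and 107 CPM in control and from 67.5, 62.8 and 69.9 to 128, 112 and 114 in cKO, again without overlap (log2 0.84 and 0.83, adjusted p = 0.0002 and 0.000267). *Oas1a*, which makes 2-5A, went from 2.83, 2.35 and 3.10 to 5.44, 3.92 and 4.44 CPM in control and from 2.23, 2.61 and 3.27 to 5.07, 4.89 and 4.44 in cKO (log2 0.73 and 0.82). Its lowest crush library lay above its highest naive one in each genotype.

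The remaining members of that group were called in 1 genotype or in neither. *Oas2*, a synthetase of the same kind, was called in control (log2 0.88, adjusted p = 0.0293) and stood at 0.18 in cKO (adjusted p = 0.685). Its levels were 0.899, 0.768 and 0.785 CPM in naive control, 1.34, 1.31 and 1.89 after crush, 1.07, 1.37 and 1.12 in naive cKO and 1.63, 0.823 and 1.55 after crush, so the cKO groups overlapped and the control groups did not. *Ifit3*, a partner of *Ifit1*, showed the reverse, with 41.8, 21.8 and 30.6 CPM in naive control, 36.8, 25.7 and 28.7 after crush, 24.4, 29.4 and 23.9 in naive cKO and 46.6, 37.2 and 37.7 after crush (log2 -0.044 and 0.65, adjusted p = 0.905 and 0.0443). Mouse *Ifit3* has a near-identical neighbour, *Ifit3b*, so its counts may miss or share reads. *Ifit2* was called in neither genotype (log2 0.17 and 0.35).

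**Figure D2:**
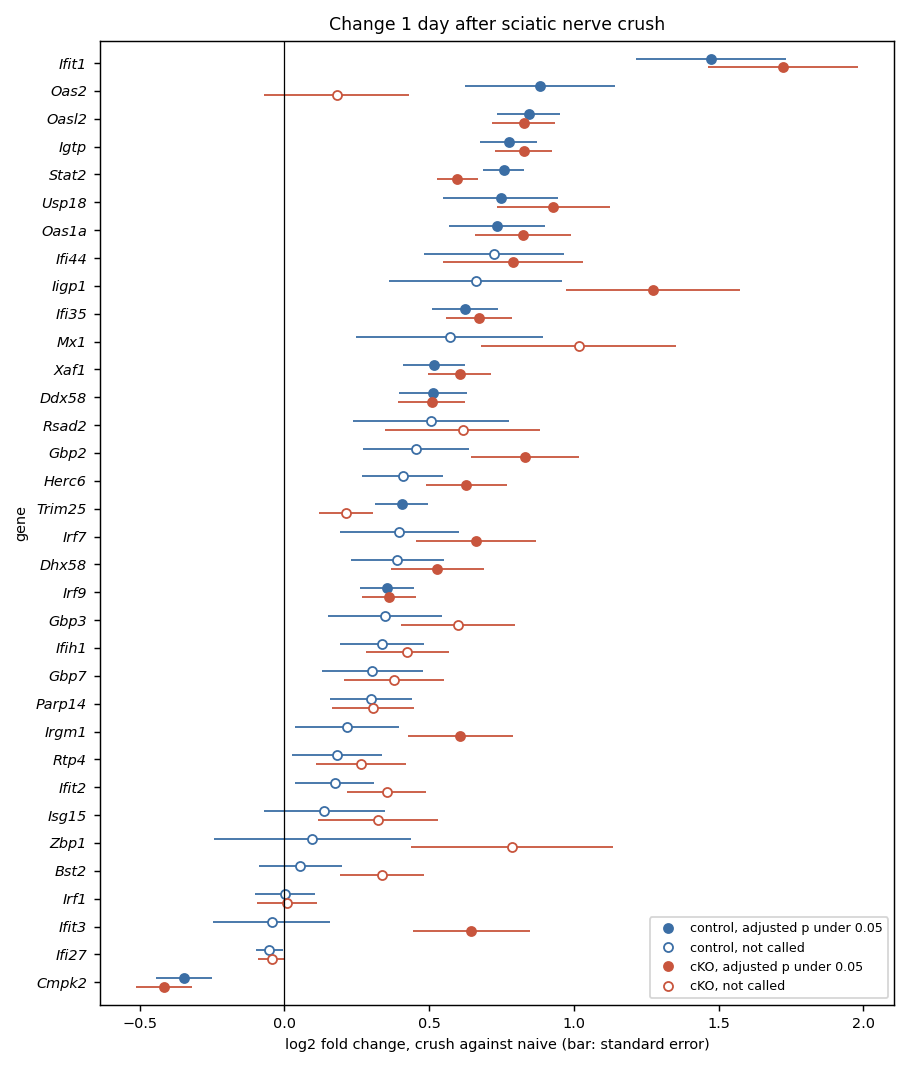
Change of each of the 34 ISGs 1 day after crush, as log2 fold change against naive ganglia with its standard error, in control (blue) and cKO (red); filled points have an adjusted p under 0.05. Most genes lie to the right of 0 in both genotypes, with Ifit1 at 1.47 and 1.72, and Cmpk2 is the one called lower in both, at -0.35 and -0.42.

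Of the transcription factors, *Stat2* (chr10:128270559-128292849, plus strand) and *Irf9*, both subunits of the complex that binds ISREs, were called in both genotypes. *Stat2* stood at 52.8, 57.7 and 56.7 CPM in naive control and 105, 90.3 and 87.4 after crush, and at 61.6, 58.5 and 62.8 in naive cKO, 97.5, 88.1 and 91.3 after crush. The groups did not overlap, and its adjusted p was the smallest of all members in control (2.50e-05, log2 0.76, SE 0.0719; cKO log2 0.60, adjusted p = 0.000155). *Irf9* moved less, from 21.5, 20.7 and 20.8 to 29.6, 25.3 and 25.5 CPM in control and from 17.8, 21.9 and 22.2 to 28.4, 24.6 and 26.6 in cKO, without overlap (log2 0.35 and 0.36, adjusted p = 0.0172 and 0.0173). *Irf7*, which drives interferon genes themselves, was called in cKO (7.80, 8.70 and 8.39 against 16.4, 12.2 and 10.8 CPM, log2 0.66, adjusted p = 0.043) and had a log2 change of 0.40 in control (adjusted p = 0.198). *Irf1*, an early target of interferon gamma, stood at log2 0.00060 and 0.010.

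Among the sensors, *Ddx58*, which encodes the RNA sensor RIG-I, was called in both genotypes. It went from 30.7, 30.4 and 30.7 to 49.3, 42.1 and 39.7 CPM in control and from 27.8, 31.9 and 34.1 to 52.9, 41.9 and 38.8 in cKO (log2 0.51 and 0.51, adjusted p = 0.00799 and 0.00909), without overlap. Its relative *Dhx58* (LGP2) was called in cKO (3.62, 3.62 and 3.00 to 5.07, 4.42 and 5.26 CPM, log2 0.53, adjusted p = 0.0397) and stood at log2 0.39 in control (adjusted p = 0.106). *Ifih1* (MDA5), which senses long double-stranded RNA, and *Zbp1*, which senses Z-form nucleic acid, were not called (log2 0.34 and 0.10 in control, 0.42 and 0.79 in cKO). Within the ISG15 system, *Usp18*, the protease that removes ISG15 and dampens receptor signalling, was called in both. It rose from 3.91, 4.11 and 4.75 to 9.41, 6.21 and 5.86 CPM in control and from 4.74, 3.89 and 4.44 to 10.3, 7.77 and 6.82 in cKO (log2 0.75 and 0.93, adjusted p = 0.018 and 0.00588). *Isg15* itself was called in neither genotype (log2 0.14 and 0.32), and its crush libraries overlapped the naive ones. *Trim25*, the ubiquitin ligase that activates RIG-I, was called in control (49.6, 52.2 and 53.97 to 77.1, 67.1 and 62.1 CPM, log2 0.40, adjusted p = 0.00821; cKO log2 0.21, adjusted p = 0.138), and *Herc6*, the mouse ISG15 ligase, in cKO (5.85, 4.86 and 5.52 to 9.82, 7.92 and 7.33 CPM, log2 0.63, adjusted p = 0.00791; control log2 0.41, adjusted p = 0.0592).

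Of the interferon-inducible GTPases, 1 of 6 was called higher in control and 4 of 6 in cKO. *Igtp* (IRGM3), which acts on pathogen vacuoles, was called in both, from 22.9, 21.001 and 20.6 to 43.6, 34.6 and 32.1 CPM in control and from 20.8, 22.2 and 23.3 to 40.4, 39.6 and 37.5 in cKO (log2 0.77 and 0.83, adjusted p = 0.000207 and 0.000157). Its libraries did not overlap between crush and naive. *Iigp1* went from 10.2, 11.5 and 12.9 to 39.3, 19.8 and 24.3 CPM in cKO (log2 1.27, adjusted p = 0.0107). *Gbp2*, a guanylate-binding protein, went from 13.2, 20.5 and 18.6 to 36.1, 28.6 and 28.3 CPM there (log2 0.83, adjusted p = 0.00803). *Irgm1*, a regulator of the other vacuole GTPases, went from 15.4, 20.3 and 18.7 to 33.1, 21.04 and 28.6 CPM (log2 0.61, adjusted p = 0.0351), and for these genes the lowest cKO crush library lay above the highest cKO naive one. In control these 3 stood at log2 0.66, 0.45 and 0.22 with adjusted p = 0.142, 0.103 and 0.44. *Gbp3* and *Gbp7* were called in neither genotype.

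Among members outside these families, *Ifi35* and *Xaf1*, a promoter of apoptosis, were called in both genotypes. *Ifi35* went from 15.999, 11.97 and 13.8 to 22.9, 22.03 and 19.5 CPM in control and from 12.3, 14.02 and 14.2 to 24.02, 20.6 and 19.97 in cKO (log2 0.62 and 0.67). *Xaf1* went from 9.57, 10.5 and 10.7 to 17.2, 13.2 and 13.7 CPM in control and from 9.29, 10.2 and 9.69 to 15.9, 15.02 and 13.4 in cKO (log2 0.52 and 0.61). Neither overlapped its naive libraries. *Ifi44* was called in cKO (2.60, 2.70 and 3.23 to 6.65, 3.91 and 4.18 CPM, log2 0.79, adjusted p = 0.0397) and stood at 0.72 in control (adjusted p = 0.0511). *Ifi27*, *Rtp4*, a receptor chaperone, and *Parp14*, an ADP-ribosyltransferase, were not called. Of the nucleotide and membrane effectors no member was called higher. *Cmpk2* (chr12:26469204-26479837, plus strand), a mitochondrial nucleotide kinase, was instead called lower in both genotypes: 49.2, 50.99 and 49.1 CPM in naive control and 41.4, 37.95 and 38.1 after crush, 53.8, 49.9 and 53.4 CPM in naive cKO and 47.2, 34.1 and 36.4 after crush (log2 -0.35 and -0.42, adjusted p = 0.0244 and 0.0103). *Rsad2* (viperin), *Mx1*, an antiviral GTPase, and *Bst2* (tetherin), which holds budding virus at the membrane, had log2 changes of 0.51, 0.57 and 0.055 in control and 0.62, 1.02 and 0.34 in cKO.

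How many members were called depended on single libraries. Crush replicate 1 was the highest of its group for 32 of 34 members in control and for 32 of 34 in cKO (34.1% and 36.4% of all genes). Without it 10 were called in control (14.6% of all genes), with a median log2 change of 0.22, and 13 in cKO (17.4%), with a median of 0.45. The fewest calls were left without naive control replicate 2, where 9 were called in control (18.9% of all genes), and without naive cKO replicate 1, where 12 were called in cKO (13.2%). In the fits with all libraries these shares of all genes were 21.6% and 18.6%. Leaving out a single library ended the calls of *Usp18*, *Irf9*, *Oas2* and *Cmpk2* in control and of *Ddx58*, *Irf9*, *Irf7*, *Ifit3*, *Dhx58*, *Ifi44* and *Irgm1* in cKO, with adjusted p of at most 0.168 for *Irf7* and 0.113 for *Oas2*. *Ifit3* and *Dhx58* in cKO lost the call whichever of the 6 libraries was left out, and *Ddx58* in cKO only without naive cKO replicate 1. Without both libraries of unexpected sex, 12 were called in control (18.5% of all genes) and 14 in cKO (11.1%), where the call of *Cmpk2* was lost. With sex as a covariate 15 were called in control (22.3% of all genes). The cKO crush group then rests on replicate 1, its only female library, so this fit cannot tell sex from that library. The median of the members in cKO was then 0.79, and *Cmpk2* stood at -0.15. Some members overlap other genes: 99.2% of the span of *Igtp* lies inside *Irgm2* on the same strand, 53.8% of *Herc6* inside Gm45193 on the same strand, and 62.8% of *Usp18* inside Gm44148 on the other. How reads in such overlaps were counted is not given in the sources used here, so the values of these members are uncertain.

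No immune cell marker was called higher after crush. Of 8 macrophage markers 0 were called in either genotype, and of 5 neutrophil markers 0. Their summed levels were 248 to 586 CPM in naive control and 227 to 395 after crush for macrophages, and 261 to 400.2 in naive cKO, 201 to 262 after crush. Summed neutrophil markers were 102 to 644 CPM in naive control and 92.8 to 367 CPM after crush. In cKO they were 171 to 338 CPM in naive ganglia and 51.1 to 116 after crush, lower in every crush library. Of the 7 lymphocyte markers 6 could be tested, and 1 was called lower in control. In the naive and crush groups no macrophage, neutrophil or lymphocyte marker was at 0 in all libraries of a group. Of the markers of other cells, 1 of 5 satellite glia markers was called higher in control and 1 lower, 1 of 5 endothelial markers was called lower in control, and 1 of 6 sensory neuron markers was called lower in each genotype. The 5 Schwann cell and 5 fibroblast markers had 0 calls. The part of these cells in the result was not tested.

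Libraries labelled cKO were compared with control libraries in naive ganglia, after crush, and as the difference between the crush effects. In naive ganglia 0 of 34 were called between the libraries labelled cKO and control (edgeR, 0.00941% of all genes called), 0 passed an unadjusted p of 0.05 (5.79% of all genes), and DESeq2 also called 0, with 0 unadjusted. The smallest p belonged to *Oas2* (log2 0.54), *Stat2* (0.13) and *Trim25* (0.13; 49.6, 52.2 and 53.97 CPM in control, 57.5, 55.8 and 57.7 in cKO), with adjusted p of 0.754 to 0.755 in edgeR. After crush 0 were called (0.00941% of all genes), 0 at an unadjusted p (2.72%), and DESeq2 called 0 with 1 unadjusted. There 29 of 34 lay above 0 (49.8% of all genes) at a median of 0.082. Without crush cKO replicate 1 the median was -0.022 and 14 lay above 0, and without crush control replicate 1 it was 0.30 and 10 passed unadjusted. *Ifit3* had the smallest p after crush (log2 0.41), before *Herc6* (0.27) and *Iigp1* (0.44), all with an adjusted p of 1.

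The crush effect in cKO minus that in control was called for 0 members (edgeR, 0% of all genes) and passed an unadjusted p for 1, *Ifit3* (2.95% of all genes; DESeq2 0 called, 1 unadjusted). That difference was 0.69 on the log2 scale (SE 0.286, adjusted p = 1). For *Oas2* it was -0.70 and for *Stat2* -0.16, with the same adjusted p. The members called in 1 genotype alone were therefore not shown to respond differently in the other. The checks of sex gave different sizes. With sex as a covariate the median was 0.35 between genotypes after crush and 0.38 for the difference. In that fit the cKO crush group rests on replicate 1 alone, the highest of its group for 32 of 34 members. Sex and this library cannot be told apart there. Without both libraries of unexpected sex the medians were 0.10 and 0.10, and 0 passed an unadjusted p or were called in either. A male library remained among the cKO crush libraries in that fit.

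Sham surgery was compared on its own side and on the opposite side of the same mice. All 34 ISGs were higher on the operated side (52.9% of all 22160 genes were), with a median log2 difference of 0.77 against 0.0081 over all genes. In edgeR 30 passed an unadjusted p of 0.05 (7.56% of all genes), 0 were called (0.00451% of all genes), and the sides did not overlap for 9 (4.25%). The smallest p belonged to *Ifi35*, at 25.2 and 34.8 CPM in ipsilateral and 20.8 and 18.1 in contralateral control libraries, and in cKO at 26.5 and 28.997 ipsilateral, 18.7 and 20.5 contralateral. All 4 mice were higher on the operated side (log2 0.56, SE 0.109, adjusted p = 0.265). *Irf9* (ipsilateral 22.98 and 30.1 CPM in control, 20.3 and 24.04 in cKO; contralateral 19.2 and 16.7, 17.3 and 15.7; log2 0.50, adjusted p = 0.319) and *Ddx58* (ipsilateral 36.6 and 58.6, 27.4 and 34.8; contralateral 25.6 and 23.9, 25.2 and 23.2; 0.65, adjusted p = 0.344) came next. The largest differences were those of *Rsad2* (1.88), *Mx1* (1.84) and *Iigp1* (1.71). The call depended on the method: without the filter on low counts 28 members were called, where 381 of 35021 genes were, and DESeq2 called 6, where 200 genes were. With the mouse as a block, which the labels support, 0 were called (smallest adjusted p = 0.264) and 29 passed unadjusted.

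The size of the sham side difference varied between mice. In control mouse 2 all 34 members were higher on the operated side at a median of 1.67, and 26 were at least 2-fold higher (3.05% of all genes). *Rsad2* stood at 74.5 against 8.46 CPM in that mouse, *Ifit1* at 126 against 16.3 and *Usp18* at 21.8 against 2.60. These genes were chosen after their values were seen. In cKO mouse 2 all 34 were higher at a median of 0.62, 8 of them 2-fold (4.22% of all genes). Control mouse 1 had 31 higher at a median of 0.25, 2 of them 2-fold (2.37%), and cKO mouse 1 had 25 higher at a median of 0.15, 0 of them 2-fold (5.29%). The median was above 0 in all 4 mice and largest in control mouse 2. That mouse was Ahr fl/fl and control mouse 1 was Ahr f/+, so mouse and *Ahr* genotype cannot be told apart between them. Without control mouse 2 all 34 were still higher, at a median of 0.37, and 9 passed an unadjusted p. In control mice 1 and 2 summed macrophage markers were 231 and 181 CPM on the operated side and 263 and 214 CPM on the other side, neutrophil markers 170.2 and 121 CPM and 185 and 173 CPM, and lymphocyte markers 6.27 and 3.43 CPM and 7.75 and 6.33 CPM, lower on the operated side in each case. In cKO mice 1 and 2 macrophage markers were 404 and 246 CPM on the operated side and 242 and 227 CPM on the other, neutrophil markers 481 and 235 CPM and 267 and 199 CPM, and lymphocyte markers 11.7 and 8.32 CPM and 4.69 and 7.86 CPM, higher on the operated side in both mice. Over the 4 mice 0 of 8 macrophage and 0 of 5 neutrophil markers were called between sides, at median log2 differences of 0.15 and 0.17, and their part in the result was not tested.

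**Figure D3:**
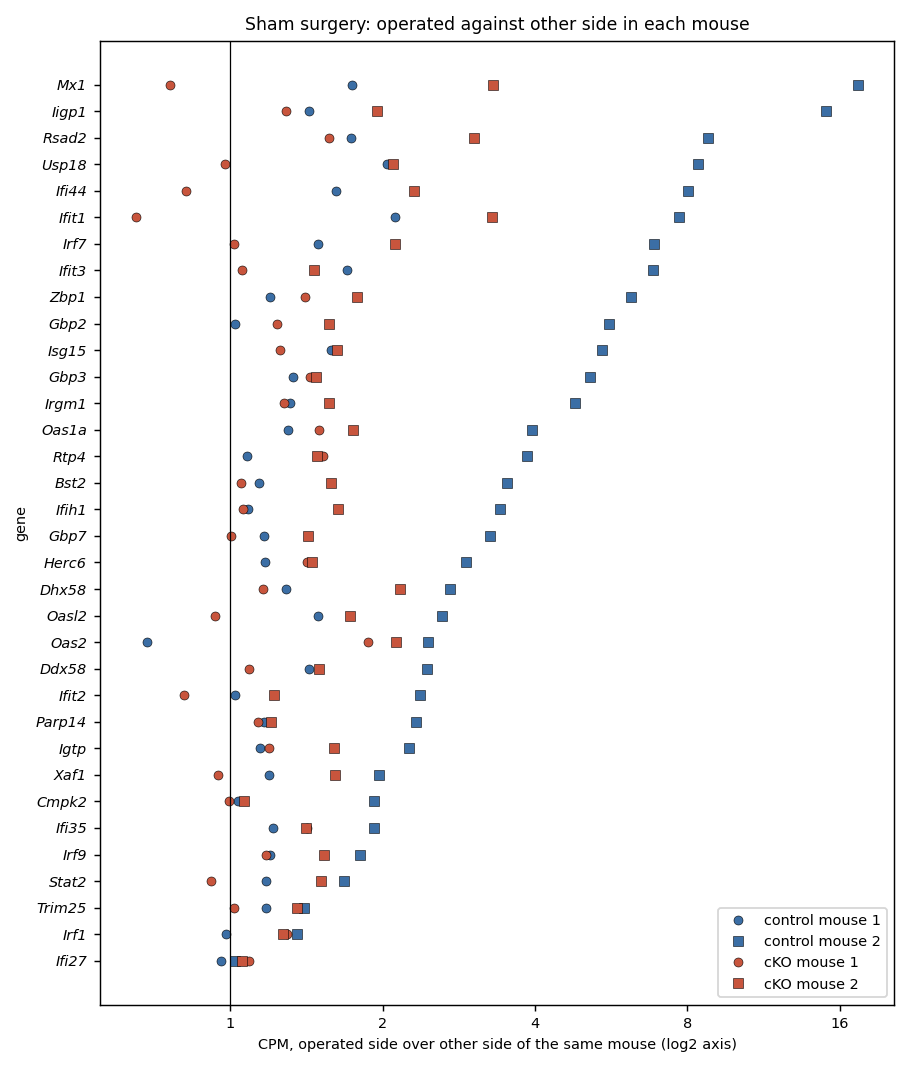
Level of the 34 ISGs on the operated side against the opposite side of each of the 4 sham mice, as the ratio of CPM on a log2 axis, 1 symbol per mouse. Control mouse 2 has a median log2 ratio of 1.67 and cKO mouse 2 one of 0.62, and control mouse 1 and cKO mouse 1 lie nearer to no difference, at 0.25 and 0.15.

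Genotype was compared on each side of the sham mice. On the operated side all 34 members were lower in the libraries labelled cKO than in control, where 52% of all genes were higher, at a median log2 fold change of -0.64. In edgeR 0 were called (0.00451% of all genes), 10 passed an unadjusted p (7.59%) and 6 did not overlap (33.3%). *Ifit3* (26.8 and 80.6 CPM in control, 14.4 and 22.02 in cKO; log2 -1.56), *Isg15* (9.49 and 25.6 CPM against 5.05 and 8.15; -1.41) and *Ddx58* (36.6 and 58.6 CPM against 27.4 and 34.8; -0.61) had the smallest p, with adjusted p of at least 0.528. In each of these genes control replicate 2, the Ahr fl/fl control, stood well above the other 3 libraries. Without it the median was -0.072, 9 members were higher in cKO and 0 passed an unadjusted p, while without control replicate 1 the median was -1.14 and 29 passed. Each of these fits leaves 1 control library, which is assumed to vary like the libraries of the other groups. DESeq2 called 0 members (0.686% of all genes) with 12 unadjusted. Summed macrophage markers on that side were 231 and 181 CPM in control and 404 and 246 CPM in cKO, and neutrophil markers 170.2 and 121 CPM in control, 481 and 235 CPM in cKO, with 0 of 8 and 0 of 5 called; their part in the result was not tested. Without the filter on low counts 16 members were called lower, among 626 of 35021 genes called. On the opposite side DESeq2 called 0 members (0.131% of all genes) with 0 unadjusted. In edgeR 0 were called there (0% of all genes), 0 passed an unadjusted p (5.23%) and the median was -0.066. The smallest p there was that of *Ifi27* (158 and 153 CPM in control, 134 and 146 in cKO; log2 -0.15, adjusted p = 0.88), before *Irf1* (19.5 and 15.1 CPM against 13.6 and 15.2; -0.27) and *Oas2* (0.900 and 0.635 CPM against 0.385 and 0.612; -0.62). The side difference in cKO minus that in control lay below 0 for 31 members at a median of -0.67, with 0 called (0% of all genes) and 1 at an unadjusted p (4.08%).

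In cultured neurons most ISGs stood well above their level in ganglia. Against naive ganglia of the same genotype 30 of 34 members were called higher and 2 lower in control neurons, at a median log2 fold change of 1.81 (all 24101 genes -0.044). In cKO neurons it was again 30 higher and 2 lower, at a median of 2.15. Most genes differ between these preparations: 81.4% of all genes were called in control, 40% higher and 41.3% lower, and 80.1% in cKO, 40.5% higher and 39.6% lower. Tissue against culture, count table, sequencing depth, stated tamoxifen treatment and, in control, the number of Ahr fl/+ mice differ together here and cannot be told apart.

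By role, all 4 sensors, all 4 transcription factors and all 4 members of the ISG15 system were called higher in neurons of both genotypes. On the scale of all 26 libraries together, *Irf1* stood at 19.99, 15.2 and 15.7 CPM in naive control ganglia and 79.1, 84.6 and 65.9 in control neurons, and in cKO at 16.5, 18.4 and 16.3 in ganglia, 88.6, 112 and 95.4 in neurons (log2 2.18 and 2.53, adjusted p = 5.55e-13 and 5.36e-14). Its p was the smallest of the members, although crush had left it at log2 0.00060 in control. *Irf9* (2.21 and 2.41), *Stat2* (1.91 and 1.97) and *Irf7* (2.61 and 3.23) were higher as well. *Isg15* stood at 7.98, 5.11 and 6.77 CPM in naive control ganglia and 68.1, 55.03 and 34.1 in control neurons, and in cKO at 5.23, 8.08 and 6.77 in ganglia, 47.2, 87.7 and 79.3 in neurons (log2 2.98 and 3.41). *Usp18* was up by 2.61 and 3.12, *Herc6* by 1.83 and 2.09 and *Trim25* by 1.19 and 1.13. Among the sensors the changes were 1.61 and 1.83 for *Ddx58*, 1.66 and 1.92 for *Ifih1*, and 2.04 and 3.29 for *Zbp1*.

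The largest increases in both genotypes were those of *Rsad2* and *Oas1a*. *Rsad2* (chr12:26442746-26456452, minus strand), whose product makes a chain-terminating nucleotide, stood at 17.5, 14.1 and 15.4 CPM in naive control ganglia and 298, 184 and 189 in control neurons. In cKO it stood at 13.6, 20.96 and 15.8 CPM in ganglia, 183, 262 and 325 in neurons. Neurons and ganglia lay far apart (14.3-fold and 15.3-fold, log2 3.83 and 3.93, adjusted p = 5.36e-07 and 3.85e-07). *Oas1a* went from 2.70, 2.21 and 2.97 to 33.2, 34.9 and 30.2 CPM in control and from 2.09, 2.49 and 3.09 to 30.04, 38.9 and 40.5 in cKO (log2 3.64 and 3.83, adjusted p = 7.01e-12 and 3.33e-12). *Ifi44* (log2 2.87 and 3.45), *Bst2* (2.58 and 3.14) and *Xaf1* (2.53 and 2.84) were higher too. *Ifit1* was higher by 1.63 and 2.21 and *Ifit3* by 1.74 and 2.73. The 2 members called lower, given by library because they were the only ones and chosen after their values were seen, were *Ifit2* and *Cmpk2*. *Ifit2*, a neighbour of *Ifit1* and *Ifit3*, was lower: 62.7, 60.5 and 66.001 CPM in naive control ganglia against 49.04, 36.3 and 33.1 in control neurons (log2 -0.68, adjusted p = 0.00638), and -0.48 in cKO (adjusted p = 0.044). *Cmpk2*, called lower after crush too, went the same way: 46.96, 48.1 and 47.04 CPM in naive control against 39.3, 26.8 and 23.9 in control neurons, and 50.5, 47.6 and 50.3 against 27.5, 39.6 and 40.9 in cKO (log2 -0.67 and -0.46, adjusted p = 0.00269 and 0.0279). Both calls rested on the reference: against contralateral sham ganglia, which came from male mice, *Ifit2* stood at -0.017 in control and 0.039 in cKO (adjusted p = 0.958 and 0.899). Against that reference *Cmpk2* stood at -0.44 and -0.21 (adjusted p = 0.0601 and 0.379). In cKO both calls also ended without naive replicate 1, naive replicate 3 or neuron replicate 1. That of *Ifit2* also ended without neuron replicate 2 and with the replicate number as a block.

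*Mx1* and *Iigp1* were not called in either genotype. *Mx1* stood at 1.42, 1.06 and 1.19 CPM in naive control ganglia and 1.15, 1.05 and 0.866 in control neurons (log2 -0.27; cKO 0.60). *Iigp1* stood at 15.4, 9.58 and 12.2 CPM in ganglia, 18.4, 10.6 and 7.43 in neurons (log2 -0.056; cKO 0.28), and for both the neuron libraries overlapped those of ganglia. Against contralateral sham ganglia *Iigp1* was called higher in both genotypes (2.03 in control, adjusted p = 0.00516; 2.11 in cKO, adjusted p = 0.00457). The other 5 GTPases were called higher, from 0.58 for *Gbp7* to 2.18 for *Gbp2* in control. The *Gbp7* call in control (adjusted p = 0.0472) was lost in 7 of 13 alternatives, with a filter of 10 counts in every library, with the replicate block and in 5 of the 6 fits without 1 library (adjusted p up to 0.148). *Ifi27*, the most abundant member, was above naive ganglia by 0.79 and 1.03. Against contralateral sham ganglia, in place of naive ones, it was called lower in control (-0.34, adjusted p = 0.000154) and not called in cKO (-0.024, adjusted p = 0.772). Its levels were 81.1, 74.9 and 74.5 CPM in naive control, 169.9 and 167 in contralateral sham control and 133, 142 and 123 in control neurons.

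**Figure D4:**
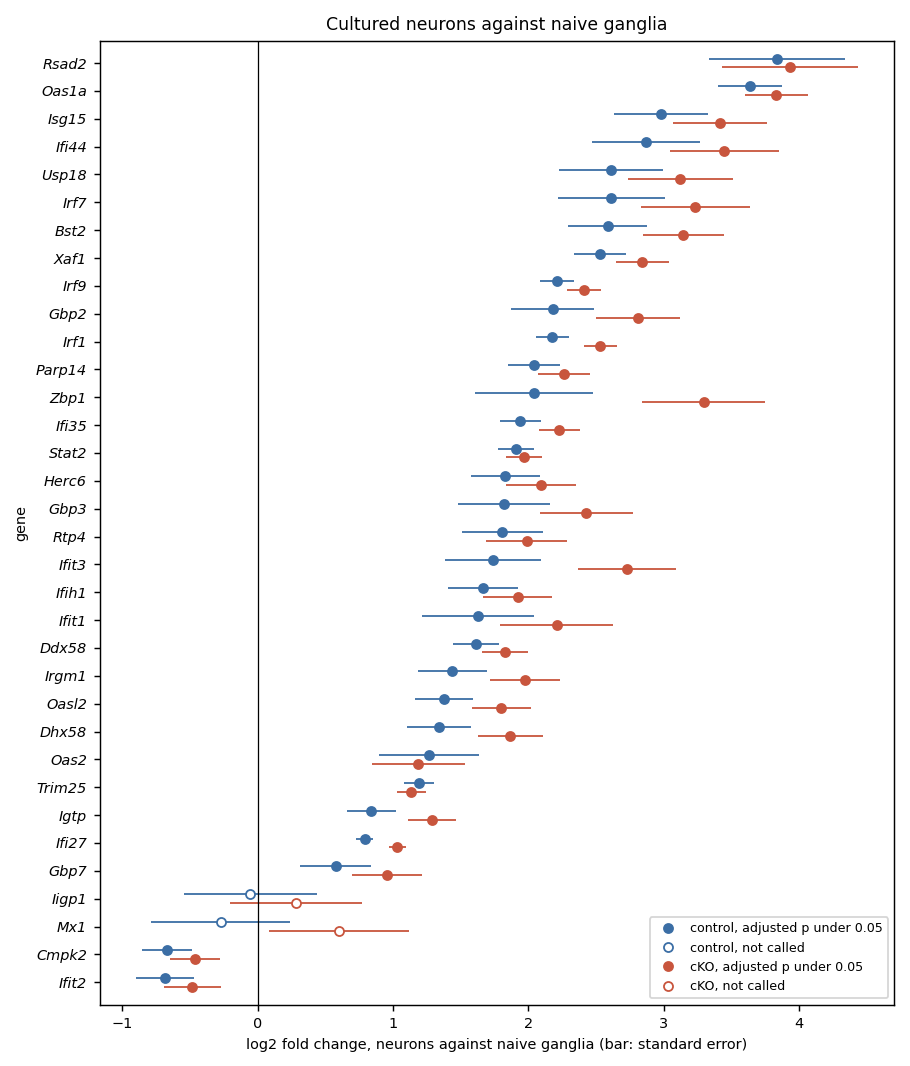
Change of each of the 34 ISGs in cultured neurons against naive ganglia, as log2 fold change with its standard error, in control (blue) and cKO (red); filled points have an adjusted p under 0.05. Rsad2 lies furthest to the right at 3.83 and 3.93, and Ifit2 and Cmpk2 are the 2 genes called lower, at -0.68 and -0.67 in control.

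Markers of other cells shifted between ganglia and cultures, and their part in the result was not tested; their sums are scaled within the libraries of each preparation. All 5 endothelial markers were called higher in neurons of both genotypes, with summed levels of 116 to 151 CPM in naive control ganglia and 979.7 to 1387 in control neurons. All 5 neutrophil markers were called lower, as were 7 of 7 lymphocyte markers in control and 5 of 7 in cKO, with 1 lymphocyte marker at 0 in all neuron libraries. Of the 8 macrophage markers 2 were higher and 6 lower in control, 2 higher and 5 lower in cKO, with sums of 248 to 586 and 189.7 to 222 CPM. Schwann cell markers fell for 4 of 5 and rose for 1, with sums of 3779.7 to 4917 CPM in naive control and 655 to 771 CPM in control neurons, and 4 of 5 satellite glia markers fell. The sensory neuron markers were split, 3 higher and 3 lower, at sums of 2866 to 3170.1 and 3011 to 3941 CPM.

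Between genotypes, all 34 members were higher in the neuron libraries labelled cKO than in control (49.2% of all genes were), at a median log2 fold change of 0.35. DESeq2 called 0 members, where it called 0.858% of all genes, and 8 members passed an unadjusted p in it. In edgeR 0 were called (0% of all 23295 genes), 4 passed an unadjusted p (8% of all genes) and 1 did not overlap (15.2%). That member was *Irf1*, at 80.8, 82.9 and 65.8 CPM in control and 88.4, 111 and 95.1 in cKO (log2 0.36, SE 0.114, adjusted p = 0.547). *Igtp* (39.9, 39.5 and 30.6 CPM against 37.2, 56.999 and 57.96; log2 0.47, adjusted p = 0.591) and *Ifit1* (143, 114 and 87.8 CPM against 117, 197 and 226; 0.65, adjusted p = 0.595) came next, with overlapping libraries. Libraries of one genotype differed widely among themselves. Control replicate 3 was the lowest of its group for 33 members (33.7% of all genes) and control replicate 1 the highest for 30 (37.7%). The latter had 25299938 counts in all, the fewest of the neuron libraries. In cKO replicate 1 was the lowest for all 34 (32% of all genes). Without control replicate 3 the median was 0.20 and 32 were higher. Without cKO replicate 1 it was 0.50 and 22 passed an unadjusted p, without control replicate 1 it was 0.52 and 18 passed, and without cKO replicate 2 it was 0.21 and 0 passed. Immune cell markers had medians above 0 in the same comparison, with 0 called: 0.36 for 8 macrophage markers, 1.23 for the 4 of 5 neutrophil markers tested and 0.71 for the 2 of 7 lymphocyte markers tested. Their summed levels overlapped between genotypes, at 189.7 to 222 CPM in control and 211 to 287 CPM in cKO for macrophages, 9.49 to 57.7 and 34.9 to 113 CPM for neutrophils and 1.54 to 2.15 and 1.67 to 2.87 CPM for lymphocytes. The part of these cells in the result was not tested.

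**Figure D5:**
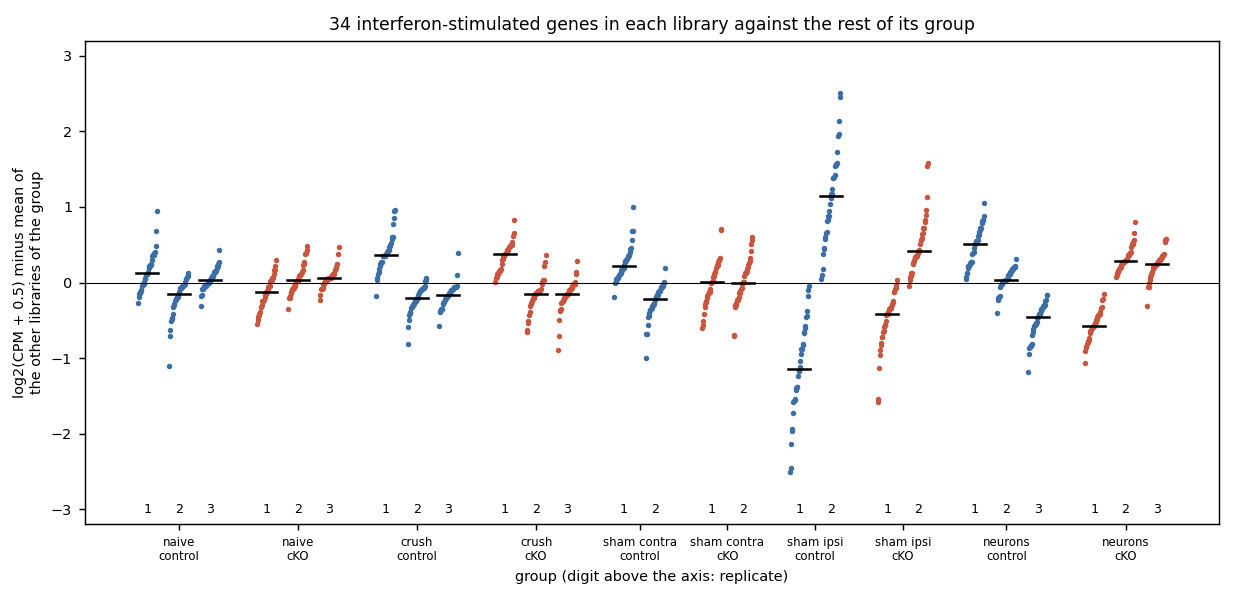
Each ISG's log2 level in a library minus the mean of the other libraries of its group, for every library, with 1 point per gene and a black bar at the median. All 34 lie below 0 in neuron cKO replicate 1 and on opposite sides of 0 in the 2 ipsilateral sham controls, and in crush replicate 1 of both genotypes 32 of the 34 are the highest of their group.

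Between replicates of one group the members often differed in the same direction. In the ipsilateral sham controls replicate 2 was the higher for all 34 (50.2% of all genes), and in the ipsilateral cKO replicate 2 for 33 (47.8%). In the contralateral controls replicate 1 was the higher for 32 (48.8%). In the naive groups no library was the highest for more than 19 of 34, but control replicate 2 was the lowest for 23 (32.4% of all genes) and cKO replicate 1 for 21 (30.1%). The contralateral cKO libraries led for 17 each.

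Other genes of the pathway were taken from a list of 47, of which 37 could be tested. The 10 that could not were all ligands: over the 26 libraries *Ifnb1* had 12 counts in all, *Ifng* 7, *Ifna2* 16 and *Ifnz* 34, and *Ifna1*, *Ifna4*, *Ifne* and *Ifnl2* had 0. These counts lay mostly in neurons: the ligands together had 7 to 15 counts in each neuron library and 0 to 3 in each ganglion library. After crush 10 of the 37 were called higher and 2 lower in control (12.9% and 8.73% of all genes), and 9 and 1 in cKO (10.7% and 7.89%). The largest changes were those of *Tmem173*, which encodes the adaptor STING, from 8.94, 7.14 and 7.31 to 34.7, 28.8 and 31.99 CPM in control and from 6.97, 8.48 and 5.02 to 29.9, 32.97 and 26.4 in cKO (log2 2.03 and 2.12), and of *Socs3*, a feedback inhibitor of JAK kinases that many cytokines induce (log2 2.06 and 2.18). *Ticam1*, the adaptor of TLR3, came next by p in control (0.74, adjusted p = 0.000382), and *Jak2* in cKO (0.57, adjusted p = 9.17e-05). *Irf2*, a repressor of ISREs, was lower in both (-0.21 and -0.30), and the interferon lambda receptor *Ifnlr1* in control (-0.73).

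In neurons 29 of the 37 pathway genes were called higher and 4 lower in control (40% and 41.3% of all genes), and 29 and 2 in cKO (40.5% and 39.6%). The smallest p among the higher ones belonged to *Tbk1*, the kinase of IRF3 (log2 1.24 and 1.13), and *Ptpn2*, a phosphatase of JAK kinases (2.15 and 1.98), joined by *Myd88*, a Toll-like receptor adaptor, in control (2.01) and by *Jak2* in cKO (1.20). The endosomal receptors *Tlr9* (-2.78 and -1.95) and *Tlr7* (-2.37 and -1.83), both used by immune cells, were lower, as was *Ifnlr1* in control (-1.59). Between genotypes and between sham sides 0 of the pathway genes were called in edgeR, and 11 of the 37 passed an unadjusted p between sham sides (7.56% of all genes).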

How the data were processed

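The deposited values are raw read counts per gene for 26 libraries. Per the labels' protocols, RNA was extracted with RNeasy Plus Mini kits and libraries were made with the TruSeq Stranded mRNA kit. Per the submitters' processing notes the authors used Trim Galore, HISAT2 and featureCounts with mm10; versions and the strand setting of counting are not given in the sources used here. Symbols were matched for 99.53% of 55401 identifiers, for *Isg15* and *Mx1* by the identifier without its version.

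Counts were tested with edgeR 4.0.16 (R 4.3.3): genes with at least 10 counts in enough libraries for the design and 15 in all, TMM scaling, quasi-likelihood tests and Benjamini-Hochberg adjustment over all genes tested, calling an adjusted p under 0.05. Naive and crush libraries, neurons and sham libraries were fitted separately, and all 26 together for neurons against naive ganglia. CPM use the TMM scale of the fit; member levels set against each other across sets are on the joint scale, and marker sums and levels per kilobase stay on the scale of their own set. DESeq2 1.42.0, other scalings and filters, a replicate block, a sex covariate and leaving out each library were alternatives. Leaving out both libraries of unexpected sex and the side difference within each genotype were chosen after seeing the data. The code was tested on simulated data.

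The members and lists were chosen with earlier results of these data known. Any member may be named. Values per library are given for members called, at most 20 per comparison by p, or else for the 3 with the smallest p. Exceptions are *Mx1*, *Iigp1*, *Ifit2* and *Cmpk2* in neurons, and *Rsad2*, *Ifit1* and *Usp18* in sham control mouse 2. *Oas2* and *Ifit3* after crush are also given in the genotype without a call. These exceptions were chosen with the values known. Of pathway genes at most 3 called in each direction are named. Each naive, crush and neuron library is 1 mouse. Only the sides of a sham mouse are paired, by the labels.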

Additional observations from a re-analysis of the deposited data

Results flagged for a closer look

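*Oas2* and *Ifit3* each had genotype differences of opposite sign in 2 settings, with no overlap of the libraries in either. Such non-overlap is common: on the operated sham side, with 2 libraries per genotype, 33.3% of all genes did not overlap. The share is not given for the other settings. For *Oas2*, cKO against control was 0.54 on the log2 scale in naive ganglia and -0.62 in contralateral sham ganglia. In the latter its nearest libraries stood at 0.635 CPM in control and 0.612 in cKO, with 16 to 51 counts per library. For *Ifit3* it was 0.41 after crush and -1.56 on the operated side after sham surgery, where it lay between -2.14 and -0.57 without 1 library and was smallest in size without control replicate 2. None of these differences was called in edgeR with the filter on low counts, and without that filter *Ifit3* was called on the operated sham side (adjusted p = 0.000322). Whether the effects differ from each other was not tested.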

How the results depend on the processing

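Leaving out 1 library at a time, 9 to 14 members were called after crush in control, where 14.4% to 18.9% of all genes were. In cKO it was 12 to 18, where 12.3% to 17.4% were. In neurons against naive ganglia 31 to 32 were called in control (77.3% to 81% of all genes) and 30 to 32 in cKO (75.4% to 79.4%). Without the filter on low counts 16 members were called between genotypes on the operated sham side (1.79% of all genes). Between sham sides 28 were called without it (1.09%), and DESeq2 called 6 (0.903%). In edgeR with the filter 0 were called in either comparison, and the cause was not tested. With contralateral sham ganglia in place of naive ones *Ifi27* was lower in control neurons (-0.34) and not called in cKO (-0.024, adjusted p = 0.772). *Ifit2* in cKO then stood at 0.039, *Mx1* in control at 0.58 and *Iigp1* in control at 2.03, signs opposite to those against naive ganglia. Leaving out 1 library, *Iigp1* in control neurons lay between -0.44 and 0.21 and was not called.

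With the replicate number as a block, 15 members were called after crush in control (20.6% of all genes) and 21 in cKO (17.4%). Between sham sides, where the number marks the mouse, 0 were called (0.0181%). Elsewhere libraries share only a number: same-numbered naive and crush libraries had correlations of deviations from -0.175 to 0.487. In neurons these were 0.0817 to 0.34, and each library correlated best with its own number, a hint from the data and not the design. In the motif search without the 50 bases after the start, 12 members held an ISRE and 6 a GAS. The sham comparisons rest on 2 mice per genotype, and the labels do not say whether libraries of a group were prepared together.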

Other observations

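Neighbouring members did not always move alike; these pairs were chosen after their values were seen, and no test was run between neighbours. *Rsad2* and *Cmpk2* lie next to each other on chromosome 12, on opposite strands. After crush *Rsad2* changed by 0.51 (log2) in control and 0.62 in cKO, with adjusted p = 0.211 and 0.139 in edgeR, while *Cmpk2* fell in both. The call of *Cmpk2* was lost in 4 of 14 alternatives in control (adjusted p up to 0.0847) and in 2 of 14 in cKO. In cultured neurons *Rsad2* rose by 3.83 and 3.93, and *Cmpk2* stood at -0.67 and -0.46; the *Cmpk2* call was lost against contralateral sham ganglia (adjusted p = 0.0601 and 0.379), and in cKO also without naive replicate 1, naive replicate 3 or neuron replicate 1. On the operated side after sham surgery the differences were 1.88 for *Rsad2* and 0.30 for *Cmpk2*. On chromosome 19, *Ifit1*, *Ifit2* and *Ifit3* stood at 1.63, -0.68 and 1.74 in control neurons against naive ganglia (*Ifit2* against contralateral sham ganglia -0.017, adjusted p = 0.958), and at 1.49, 0.36 and 1.15 between sham sides.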
